A study of Mus musculus with 6 samples.

Results

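Keratin-associated proteins are small matrix proteins, and their genes were followed here in 6 RNA-seq libraries of whole B16F10 melanoma grafts grown in the mouse tongue, 3 with inhibition of lymph node nociceptive nerves and 3 controls. The family was taken as every gene whose symbol starts with Krtap, together with the predicted genes Gm11595 and Gm11563 of the chromosome 11 cluster, which gave 60 members among the 55487 gene IDs of the deposited count table. The family was chosen by its measured values in these same libraries, since Krtap4-7, Krtap4-16, Krtap4-2 and Gm11595 were already known to be among the few genes called in this comparison. The members' differences between the groups are therefore a description, and calls that fell on members in the fit across all genes are given as counts that support nothing. Of the 60 members, 26 had at least 1 count, 34 had none in any library, 23 had 10 or more counts in all and 22 passed the filter on low counts.

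All hosts were labelled WT and were C57BL/6J mice. The inhibition group is taken as the one whose cervical lymph nodes received the retrograde vector AAV2/retro-Trpv1-hM4D(Gi)-mCherry, which carries an inhibitory designer receptor. The other vector of the design, AAV2/retro-Trpv1-mCherry, carries the fluorescent protein alone and is taken as that of the controls, since the sample labels name no vector. In both groups the melanoma cells were placed under the tongue mucosa 6 weeks later, and deschloroclozapine, the receptor's ligand, followed for 12 days at 2 doses per day. The control samples are labelled as vehicle-treated, while the design text gives the ligand to the mice without setting the controls apart, so what the controls received is not certain. The sources used here gave neither the age nor the sex of the hosts. As a model, the vector was under a Trpv1 promoter and was placed in the lymph nodes, so it was aimed at nerves that run to the nodes rather than at those of the graft. Non-tumour tissue was trimmed away before RNA was taken from the entire graft, and in such bulk RNA fewer cells of a type and less RNA per cell cannot be told apart. Nothing in the labels says that the 3 samples of a group came from 3 animals, so a p-value here speaks only of the variation among these samples, which may be technical.

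In hair, nail and the filiform papillae of the tongue, hard keratins of type I and type II pair into filaments, and keratin-associated proteins fill the space between those filaments and cross-link them through disulfide bonds. By composition they are sorted into high sulfur and ultra-high sulfur proteins, which are rich in cysteine, and high glycine-tyrosine proteins. Most of the genes are short, lack introns and sit in clusters that arose by duplication, and in the hair shaft they are switched on late in differentiation.

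The 120 bases before the annotated start of 5 members of subfamily 4 and its neighbourhood are shown first because these include the 4 members called in this comparison. The sequences are from RefSeq on build GRCm38.p6, lie on the minus strand of chromosome 11 and are written 5′ to 3′ along the gene. Capitals mark each TATAAA and each ACAAGGAA on the gene's strand. The windows are chr11:99644090-99644209 for Krtap4-7, chr11:99851606-99851725 for Krtap4-16, chr11:99635085-99635204 for Krtap4-2, chr11:99772914-99773033 for Gm11595 and chr11:99658960-99659079 for Gm11563.
Krtap4-7: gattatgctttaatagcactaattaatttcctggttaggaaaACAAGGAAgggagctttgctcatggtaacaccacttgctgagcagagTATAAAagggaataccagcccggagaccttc
Krtap4-16: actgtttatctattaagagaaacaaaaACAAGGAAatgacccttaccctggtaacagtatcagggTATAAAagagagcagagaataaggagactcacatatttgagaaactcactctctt
Krtap4-2: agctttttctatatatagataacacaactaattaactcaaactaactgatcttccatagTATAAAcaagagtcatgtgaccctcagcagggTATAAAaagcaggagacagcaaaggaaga
Gm11595: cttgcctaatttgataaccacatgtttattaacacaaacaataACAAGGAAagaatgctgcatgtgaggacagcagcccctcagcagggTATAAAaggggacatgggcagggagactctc
Gm11563: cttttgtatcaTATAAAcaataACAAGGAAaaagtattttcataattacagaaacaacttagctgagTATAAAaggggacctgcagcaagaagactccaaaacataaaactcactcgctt

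For comparison, the same stretch is shown for 4 of the 5 members with the most counts, all of other subfamilies, and for Krtap19-1, a high glycine-tyrosine gene with no count in any library. These windows are chr11:99566631-99566750 for Krtap3-1 and chr11:99598107-99598226 for Krtap9-3, both on the minus strand, chr16:88751629-88751748 for Krtap13 and chr16:88869411-88869530 for Krtap19-1, also on the minus strand, and chr16:88728742-88728861 on the plus strand for Krtap13-1.
Krtap3-1: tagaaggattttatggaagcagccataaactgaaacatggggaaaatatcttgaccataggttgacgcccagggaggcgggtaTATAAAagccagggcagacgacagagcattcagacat
Krtap9-3: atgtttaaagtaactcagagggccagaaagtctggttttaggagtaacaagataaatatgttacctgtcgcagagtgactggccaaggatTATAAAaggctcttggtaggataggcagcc
Krtap13: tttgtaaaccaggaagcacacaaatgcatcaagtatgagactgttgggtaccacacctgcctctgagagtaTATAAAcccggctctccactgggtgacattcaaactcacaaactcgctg
Krtap13-1: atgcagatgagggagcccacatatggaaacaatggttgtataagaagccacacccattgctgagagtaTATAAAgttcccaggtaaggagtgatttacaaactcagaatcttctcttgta
Krtap19-1: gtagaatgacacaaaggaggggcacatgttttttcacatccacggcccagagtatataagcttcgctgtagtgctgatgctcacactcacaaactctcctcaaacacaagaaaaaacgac

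Most windows of detected members held TATAAA, and ACAAGGAA lay mostly in those of subfamily 4 and the predicted genes. RefSeq promoter windows, from 250 bases before to 50 bases after a gene's start, were matched for 53 of the 60 members and searched on both strands. TATAAA was present in 19 of the 21 matched members with 10 or more counts and in 22 of the 29 matched members with no count, against 14.2% of the 27025 genes with a window. On the gene's own strand it occurred in 19 of the detected members, and in 14 of these it started 20 to 45 bases before the annotated start. The 120 bases shown for Krtap19-1 held no TATAAA, so they do not stand for the members with no count. ACAAGGAA, which was noticed in these promoters themselves, was present in 9 of the 10 windows of subfamily 4 and the 2 predicted genes, in 1 of the 11 windows of other detected members, in 2 of the 29 windows of members at 0, and in 1.72% of all windows. CTTTGAA, a core that LEF1 and TCF proteins are known to bind, was present in 3 of the 21, in 6 of the 29 and in 5.27% of all. The 3 motifs can share at most 1 base at their ends, and a match describes the sequence only. The family genes are duplicates of one another, so their windows are not independent.

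The family as a whole was higher in every inhibition library than in every control library. It held 1533, 3717 and 1410 counts in inhibition libraries 1, 2 and 3, against 146, 231 and 303 counts in control libraries 1, 2 and 3. Values that follow run in the same order of library number. Summed over all 60 members, counts scaled to library size by TMM factors (CPM) were 107, 190.5 and 67.2 in inhibition grafts and 8.81, 15.03 and 14.7 in control grafts. Inhibition library 2 was the highest of the 6, and the lowest inhibition library was at 4.47 times the level of control library 2, the highest control. The means were 122 ± 62.9 CPM under inhibition and 12.8 ± 3.49 CPM in controls (SD, n = 3 each), a ratio of 9.48 or 3.25 on the log2 scale. The family took a very small part of each library, 6.72 to 19.3 counts per 100000 under inhibition and 0.886 to 1.498 per 100000 in controls.

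Under inhibition 23, 26 and 24 members had a count and 22, 23 and 22 had 10 or more, against 21, 23 and 23 members with a count and 4, 8 and 9 with 10 or more in controls. The number of members with any count was thus close in both groups, while the level was lower in control grafts. The library totals were 14477277 to 20972494 counts under inhibition and 15420091 to 20914180 counts in controls. One count was worth 0.0476 to 0.0701 CPM, and a count of 0 allows a level of up to 3 counts, or 0.143 to 0.210 CPM per library, a limit that covers counting error only.

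**Figure D1:**
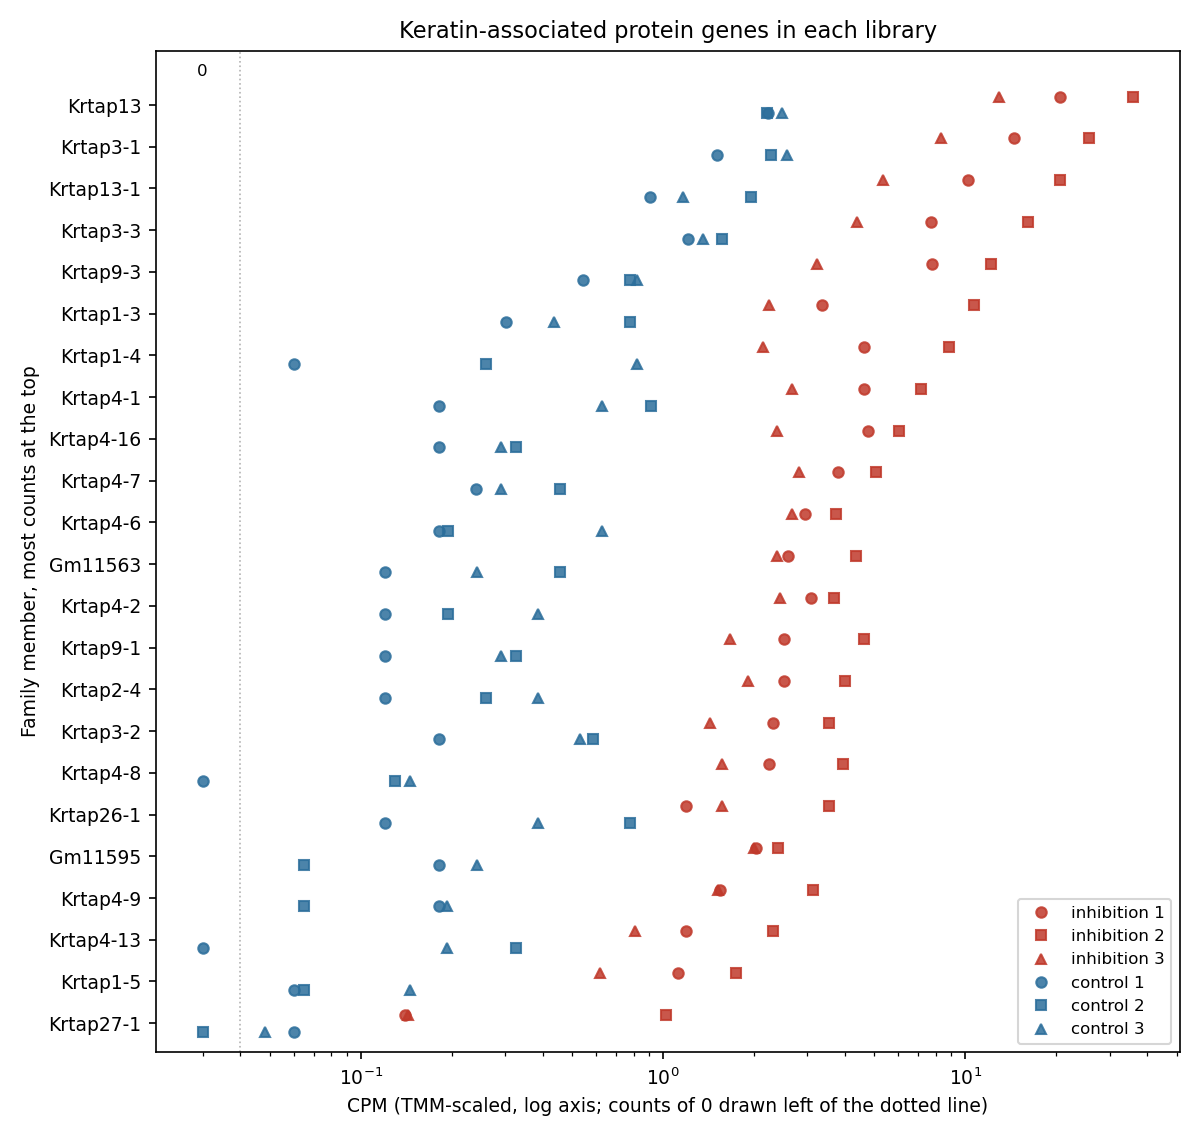
CPM of the 23 members with 10 or more counts in each of the 6 libraries, on a log scale, with 1 row per member in order of counts, inhibition libraries in red above control libraries in blue, and circles, squares and triangles for libraries 1, 2 and 3. In each of the 23 rows the 3 inhibition marks lie to the right of the 3 control marks, and the levels run over more than a factor of 10 within a group.

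All 23 of the members with 10 or more counts had their 3 inhibition values above their 3 control values. Over all 15666 genes tested, 10.2% had groups that did not overlap in this direction. The edgeR quasi-likelihood test with Benjamini-Hochberg adjustment over all genes called 4 members higher (Krtap4-7, Krtap4-16, Krtap4-2 and Gm11595), where 0.0319% of all genes tested, or 5, were called higher. DESeq2 called 20 members higher, and 2.23% of all genes. The family was selected on this contrast, so nothing is read from these counts. Calls depended on single libraries: 20 members were called without inhibition library 3, where 217 genes in all were called. No member and no other gene was called without inhibition library 1, inhibition library 2 or control library 3.

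The genes of subfamily 13, high sulfur proteins encoded on chromosome 16, carried 28.8% of the family's counts over the 6 libraries. That was the largest part, but in control libraries 2 and 3 subfamily 13 held 27.7% and 24.8%, less than the 29.4% and 30.4% of subfamily 3. Krtap13 (ENSMUSG00000050224, chromosome 16, 88750744 to 88751635 on mm10, minus strand) was the member with the most counts. Of its 50-base windows 24.9% occurred in another gene, mostly 2310057N15Rik, so its counts may be uncertain. The level of Krtap13 was 20.6, 35.9 and 12.9 CPM under inhibition and 2.23, 2.21 and 2.47 CPM in controls, a log2 fold change of 3.32 ± 0.40 (standard error). Its controls lay close together, while the inhibition libraries spread widely, with library 2 the highest. Its neighbour Krtap13-1, on the opposite strand, had 10.2, 20.6 and 5.34 CPM under inhibition and 0.905, 1.95 and 1.16 CPM in controls, a log2 fold change of 3.18 ± 0.57. Of the other detected genes of chromosome 16, Krtap26-1, a high sulfur member, had 1.19, 3.54 and 1.57 CPM under inhibition and 0.121, 0.781 and 0.387 CPM in controls. Its log2 fold change of 2.31 ± 0.62 was the smallest of the 22. Krtap27-1, also a high sulfur member, had 0.140, 1.02 and 0.143 CPM under inhibition and 0.0603, 0 and 0.0484 CPM in controls and did not pass the filter. Krtap27-1 rested on inhibition library 2, and outside that library it was at or below the 3-count limit.

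Subfamily 3, high sulfur proteins of the chromosome 11 cluster, made up 23.7% of the counts and had a lower ratio between the groups than the other large subfamilies. Krtap3-1 (chromosome 11, 99566027 to 99566630, minus strand) had 14.5, 25.6 and 8.29 CPM under inhibition and 1.51, 2.28 and 2.57 CPM in controls, a log2 fold change of 2.92 ± 0.45. Krtap3-3 had 7.71, 16.1 and 4.38 CPM under inhibition and 1.21, 1.56 and 1.36 CPM in controls (2.77 ± 0.49). Krtap3-2 had 2.31, 3.54 and 1.43 CPM under inhibition and 0.181, 0.586 and 0.532 CPM in controls (2.46 ± 0.50). These copies are close to one another in sequence: 41.3% of the 50-base windows of Krtap3-3 and 28.9% of those of Krtap3-2 occurred in another gene, so their split may be uncertain. Summed, the subfamily had 24.5, 45.2 and 14.1 CPM under inhibition and 2.90, 4.42 and 4.45 CPM in controls, a ratio of 7.12. It took 22.8%, 23.7% and 20.99% of the family's counts under inhibition and 32.9%, 29.4% and 30.4% in controls, so its share was lower in each inhibition library.

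Subfamily 4, ultra-high sulfur proteins of the same cluster, had all 8 of its members detected and held 3 of the 4 called genes. Krtap4-7 (99643106 to 99644089) had 3.78, 5.07 and 2.81 CPM under inhibition and 0.241, 0.455 and 0.290 CPM in controls, a log2 fold change of 3.55 ± 0.39. Krtap4-16 (99850655 to 99851608) had 4.76, 6.05 and 2.38 CPM under inhibition and 0.181, 0.325 and 0.290 CPM in controls (4.01 ± 0.47), and none of its 50-base windows occurred in another gene. Krtap4-2 (99634111 to 99635084) had 3.08, 3.69 and 2.43 CPM under inhibition and 0.121, 0.195 and 0.387 CPM in controls (3.62 ± 0.44). In these called genes inhibition library 2 was at 1.52 to 2.54 times the level of inhibition library 3. Their standard errors of 0.39 to 0.47 were at the low end of a range of 0.39 to 0.80 over the 22 members.

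The remaining 5 genes of subfamily 4 had log2 fold changes from 3.02 to 4.68. Krtap4-1 had 4.62, 7.12 and 2.67 CPM under inhibition and 0.181, 0.911 and 0.629 CPM in controls (log2 fold change 3.06 ± 0.54). Krtap4-6 had 2.94, 3.74 and 2.67 CPM under inhibition and 0.181, 0.195 and 0.629 CPM in controls (3.13 ± 0.46). In both, control library 1 was the lowest. Krtap4-8 had 2.24, 3.95 and 1.57 CPM under inhibition and 0, 0.130 and 0.145 CPM in controls. Its log2 fold change of 4.68 ± 0.66, the largest of the 22, rests on control values at or below the 3-count limit. Krtap4-9 had 1.54, 3.13 and 1.52 CPM under inhibition and 0.181, 0.0651 and 0.194 CPM in controls (3.72 ± 0.53). Krtap4-13 had 1.19, 2.31 and 0.810 CPM under inhibition and 0, 0.325 and 0.194 CPM in controls (3.02 ± 0.72), but 81.3% of its 50-base windows also occur in the neighbouring predicted gene Gm11554, so its counts are uncertain. Summed, subfamily 4 had 24.2, 35.1 and 16.9 CPM under inhibition and 1.09, 2.60 and 2.76 CPM in controls, a ratio of 11.8.

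The predicted genes Gm11595 and Gm11563 lie among the subfamily 4 genes and code for ultra-high sulfur proteins, with cysteine at 39.1% and 36.9% of their codons. Gm11595 (99771714 to 99772913) had 2.03, 2.41 and 2.001 CPM under inhibition and 0.181, 0.0651 and 0.242 CPM in controls, a log2 fold change of 3.61 ± 0.44. Inhibition library 2 was at 1.20 times the level of inhibition library 3, the smallest such ratio of the 22. Gm11563 (99657949 to 99658960) had 2.59, 4.36 and 2.38 CPM under inhibition and 0.121, 0.455 and 0.242 CPM in controls (3.51 ± 0.48). Krtap4-8 shared 21.5% of its 50-base windows with Gm11595, so reads of that pair may have been split between them.

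Subfamilies 1, 2 and 9, with cysteine from 26.2% to 37.6%, also lie in the chromosome 11 cluster and made up smaller parts of the counts. Krtap9-3, a high sulfur member, had 7.78, 12.2 and 3.24 CPM under inhibition and 0.543, 0.781 and 0.823 CPM in controls (log2 fold change 3.41 ± 0.51). Krtap1-3, ultra-high sulfur at 30.6% cysteine, had 3.36, 10.7 and 2.24 CPM under inhibition and 0.302, 0.781 and 0.436 CPM in controls (3.43 ± 0.72). Krtap1-4 had 4.62, 8.81 and 2.14 CPM under inhibition and 0.0603, 0.260 and 0.823 CPM in controls (3.66 ± 0.80). The log2 fold change of Krtap1-4 was 4.98 without control library 3 and 3.02 without inhibition library 2, and that of Krtap1-3 was 2.45 without inhibition library 2. For Krtap1-3 and Krtap1-4 inhibition library 2 was at 4.78 and 4.11 times the level of inhibition library 3, the widest ratios among the 22 members that passed the filter. Krtap9-1 had 2.52, 4.61 and 1.67 CPM under inhibition and 0.121, 0.325 and 0.290 CPM in controls (3.54 ± 0.53), and shared 35.7% of its 50-base windows with Gm11559. Krtap2-4 had 2.52, 3.997 and 1.91 CPM under inhibition and 0.121, 0.260 and 0.387 CPM in controls (3.38 ± 0.48), and shared 40.4% with Gm11562. Both partner genes lie in the same cluster. Krtap1-5, the lowest of the 22 per length, had 1.12, 1.74 and 0.619 CPM under inhibition and 0.0603, 0.0651 and 0.145 CPM in controls (3.52 ± 0.63).

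**Figure D2:**
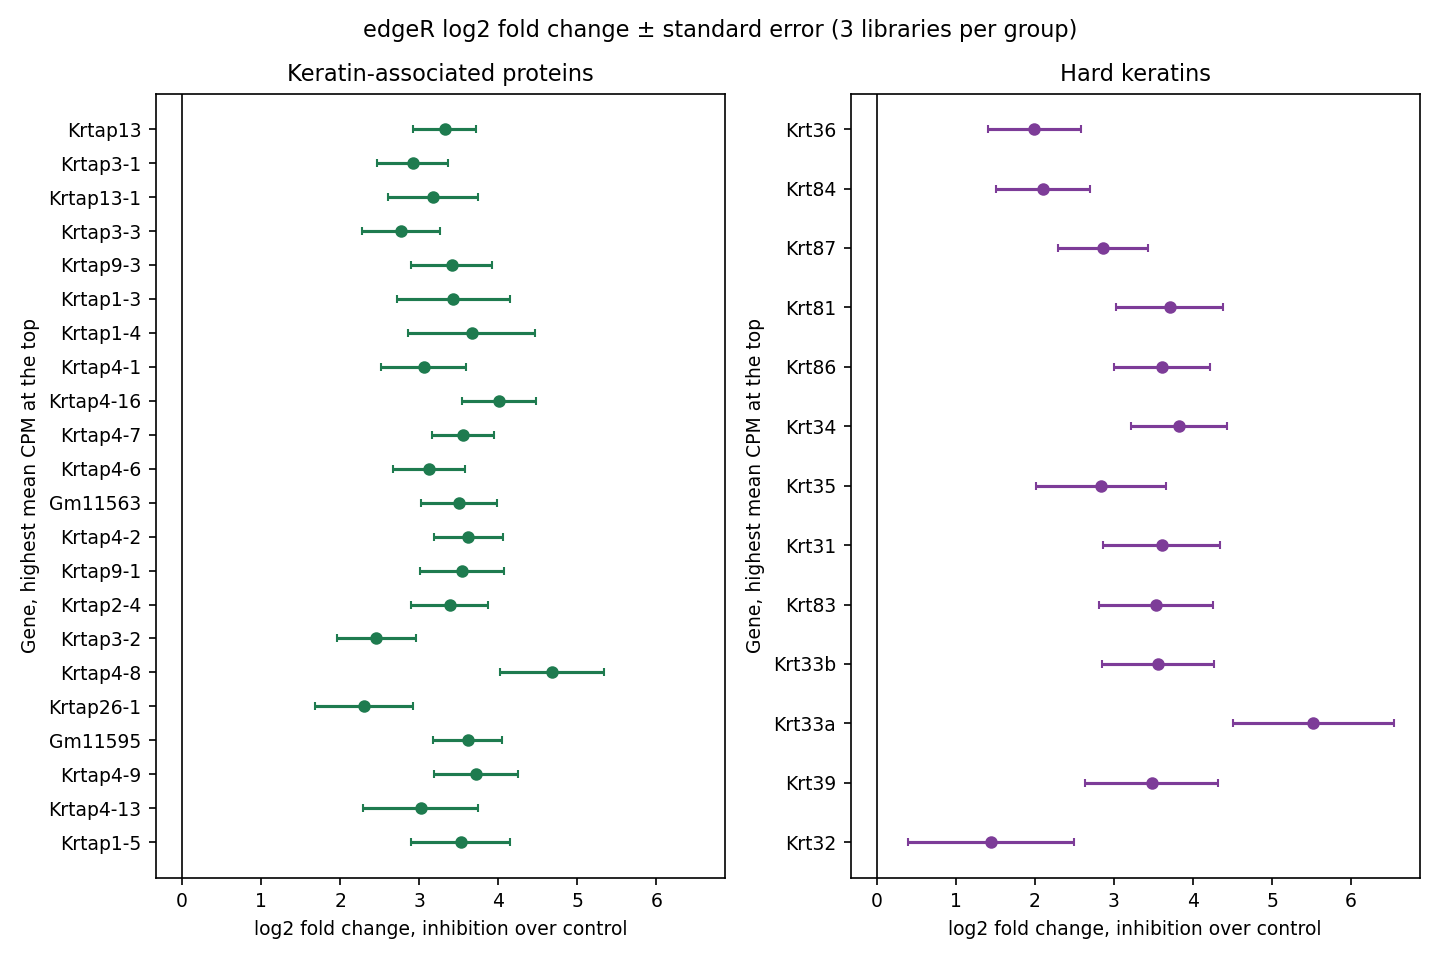
Log2 fold change, inhibition over control, with its standard error as bars, for the 22 members that passed the filter and for the 13 hard keratin genes tested, each with the highest mean CPM at the top. Points of the family lie between 2.31 and 4.68, and those of the hard keratins between 1.44 and 5.52.

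Among the 22, log2 fold changes ran from 2.31 to 4.68 with a median of 3.42, beside a median of 0.00485 over all genes tested. These values describe the members that passed the filter, which a gene could pass through the inhibition group alone, and not the whole family. The CPM ratio of inhibition library 2 to inhibition library 3 had a median of 2.60 over the 22, 4.11 in subfamily 1 and 2.28 in subfamily 4. The 4 called members had ratios from 1.20 to 2.54. Leaving out inhibition library 2 moved the fold of 5 of the 22 down by over 1.5 times. Without control library 2 the fold of 2 members moved up by as much, and without control library 3 that of 3, among them the called Krtap4-2 at a log2 fold change of 4.22.

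Levels of different genes were compared per length, as mean CPM per kb of exon over the 6 libraries, an order that follows the inhibition libraries because their levels are higher. Krtap3-1 at 15.1 and Krtap13 at 14.3 CPM per kb led the family and are not told apart, since Krtap3-1 was above Krtap13 in 4 of 6 libraries. Krtap13-1 followed at 8.92, below Krtap13 in 5 of 6 libraries, then Krtap3-3 at 7.32, Krtap9-3 at 5.57 and Krtap1-4 at 4.70 CPM per kb. Krtap3-3 was above Krtap9-3 in all 6 libraries, the only step between neighbours in the order of 23 that held in every library. The genes of subfamily 4 ranged from 0.987 CPM per kb for Krtap4-13 to 2.65 CPM per kb for Krtap4-1, and Krtap1-5 and Krtap27-1 closed the order at 0.601 and 0.366 CPM per kb. In controls alone the order differed in its middle: Krtap26-1, in place 18 of the order over 6 libraries, was in place 9 at 0.441 CPM per kb, above Krtap4-7 at 0.334 and Krtap4-16 at 0.278 CPM per kb. These places rest on few control counts: 2, 12 and 8 for Krtap26-1 and 4, 7 and 6 for Krtap4-7. Krtap4-16 had 3, 5 and 6 counts. In control library 1 Krtap26-1 lay below both of the others. The leading pair and the last pair were the same in controls. Counts were concentrated in few genes: Krtap13 and Krtap3-1 held 32.4% of the family's 7340 counts, and the 10 members with the most counts held 75.7%.

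Detection differed between the composition classes. Each coding sequence was translated in frame and called ultra-high sulfur at 30% cysteine or more, otherwise high glycine-tyrosine at 35% glycine plus tyrosine or more, otherwise high sulfur. High sulfur is thus a remainder class with no lower limit of cysteine, and its members ran from 4% to 29.8% cysteine. Of the 15 high glycine-tyrosine members, all on chromosome 16, 14 had no count, and Krtap6-2 had 2 counts, both in inhibition library 2. Of the 21 high sulfur members 12 had a count and 11 had 10 or more, and of the 23 ultra-high sulfur members 13 had a count and 12 had 10 or more. The remaining member, the pseudogene Krtap19-9a, has no coding sequence and was at 0. Krtap2-4 at 29.8% cysteine lies just outside the first threshold and Krtap1-3 at 30.6% just inside it, and Krtap7-1 at 29.9% glycine plus tyrosine is the highest of the high sulfur class.

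High sulfur genes summed to 72.7, 133 and 42.0 CPM under inhibition and 7.0, 10.8 and 10.7 CPM in controls, a ratio of 8.70. Ultra-high sulfur genes summed to 34.7, 57.3 and 25.2 CPM under inhibition and 1.81, 4.23 and 3.97 CPM in controls, a ratio of 11.7. The ultra-high sulfur share of the family's counts was 32.3%, 30.1% and 37.5% under inhibition and 20.5%, 28.1% and 27.1% in controls, so it was higher in each inhibition library, with inhibition library 2 close to control library 2.

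**Figure D3:**
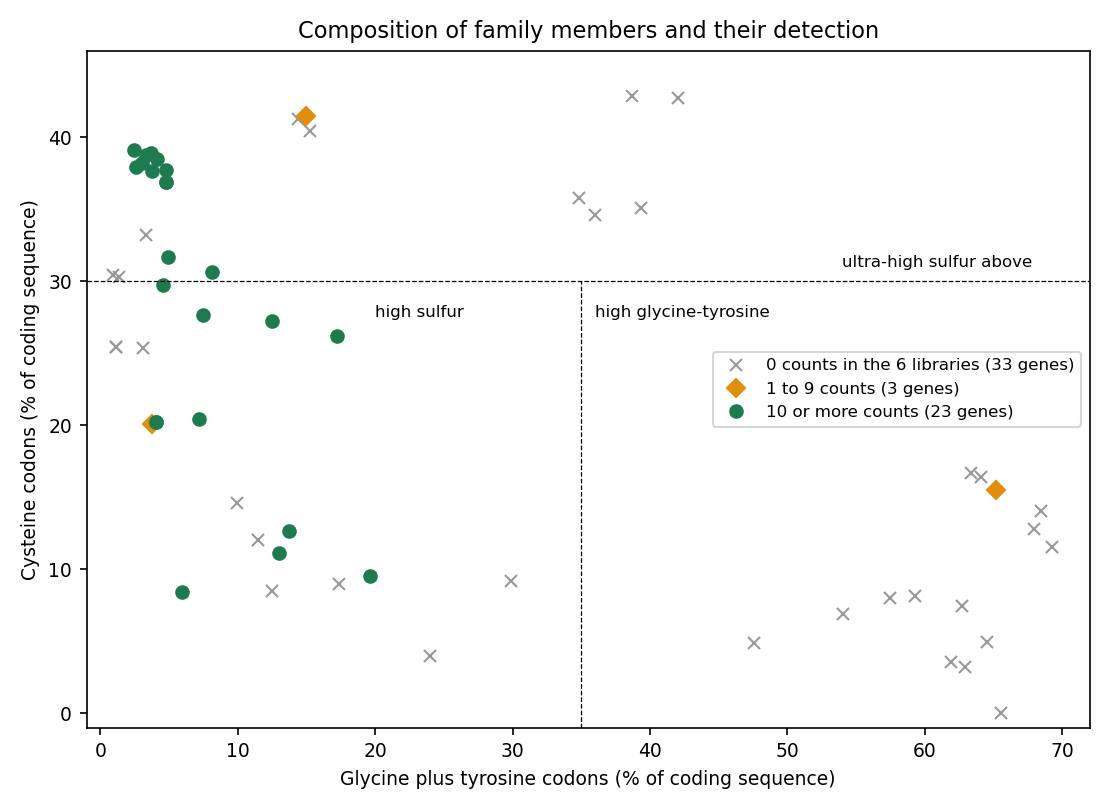
Cysteine content against glycine plus tyrosine content of the 59 members with a coding sequence, in percent of codons, with green circles for 10 or more counts, orange diamonds for 1 to 9 counts, grey crosses for none, and dashed lines at the class thresholds of 30% and 35%. The 23 green circles lie below 20% glycine plus tyrosine, and 14 of the 15 genes in the lower right field are crosses.

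Detection also differed between the clusters. This is not separate from the classes: all 15 high glycine-tyrosine members lie on chromosome 16, and 14 of them had no count. On chromosome 11 the family spans 99550130 to 99993994, and 20 of its 25 members there had a count, with 68.8% of the family's counts. On chromosome 16, from 88610705 to 89571183, 5 of 25 members had a count, with 31.1% of the counts, nearly all of them from Krtap13 and Krtap13-1. The 5 members on chromosome 7 had 4 counts between them, all from Krtap5-5, and the 3 members on chromosome 10 and the 2 on chromosome 1 had none. Both detected clusters had similar ratios: chromosome 11 members summed to 75.3, 129 and 47.2 CPM under inhibition and 5.49, 10.1 and 10.6 CPM in controls, and chromosome 16 members to 32.2, 61.1 and 19.97 CPM under inhibition and 3.32, 4.95 and 4.07 CPM in controls. The subfamilies wholly at 0 were 7, 8, 10, 11, 12, 14, 15, 17, 19, 20, 21, 22, 24, 28, 29 and 31.

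Reads from near-identical copies could not be placed with certainty, because the sources used here did not give the counting settings. Of the 23 members with 10 or more counts, 8 shared over 20% and 11 under 10% of their 50-base windows with another annotated gene, with a median of 12.7%. The sum over the 35 members that share under 10%, of which 11 had 10 or more counts, gave a ratio of 9.47 between the groups, beside 9.48 for the whole family.

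Hard keratins, the filament proteins that the family embeds, were measured beside it. Of 15 hard keratin genes found, 13 were tested and all 13 had positive log2 fold changes, from 1.44 to 5.52 with a median of 3.53, but edgeR called none after adjustment over all genes (adjusted p = 0.122 to 0.532). In the same fit 12 of the 13 had an unadjusted p under 0.05, where 8.36% of all genes did so in this direction. DESeq2 called 12, where it called 2.23% of all genes higher, and limma-voom called none. Without inhibition library 3 edgeR called 9, but its calls over all genes then rose from 6 to 217 in both directions. The highest value was that of Krt33a, which had 1, 1 and 2 counts in controls, below the 3-count limit. Without inhibition library 2 the log2 fold change of Krt33a was 4.29, that of 11 of the 12 genes still tested was lower by over 1.5 times as a fold, and the median was 2.69. Krt82 and Krt40 were at 0, and Krt85 was not analysed here.

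The highest CPM were those of Krt36 and Krt84, keratins known from the tongue papillae. Krt36 had 91.7, 183 and 49.3 CPM under inhibition and 19.0, 38.6 and 24.0 CPM in controls, a log2 fold change of 1.996 ± 0.59 (edgeR adjusted p = 0.250). Krt84 had 88.0, 157 and 45.9 CPM under inhibition and 15.3, 35.01 and 18.0 CPM in controls (2.10 ± 0.60, adjusted p = 0.241). Krt87 had 20.7, 37.2 and 8.53 CPM under inhibition and 2.78, 3.45 and 2.90 CPM in controls (2.86 ± 0.57, adjusted p = 0.166). In all 3 genes inhibition library 2 was the highest and inhibition library 3 the lowest of its group, as in the family. The remaining 10, among them Krt31, Krt33a, Krt34, Krt35, Krt81, Krt83 and Krt86, which are known from the hair cortex, had lower CPM, and groups overlapped in 1, Krt32. Inhibition thus lay wholly above control in 12 of the 13 hard keratins tested, where 10.2% of all genes tested did so.

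Set against the hard keratins, the family's level depended on which keratins were counted. The family had 37.6 to 52.3 CPM for each 100 CPM of all hard keratins under inhibition and 18.0 to 28.1 in controls. Without Krt36 and Krt84, a division made after their values were seen, the hard keratins summed to 78.1, 166 and 33.4 CPM under inhibition and 7.06, 10.02 and 10.2 CPM in controls, a ratio of 10.2. Against that sum the family stood at 1.38, 1.14 and 2.01 times under inhibition and 1.25, 1.5 and 1.44 times in controls, and the groups overlapped.

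Genes listed for the inner root sheath of the hair follicle and, with Krt75, the layer beside it were nearly silent apart from trichohyalin. Tchh, whose protein hardens the inner root sheath and is also found in filiform papillae, had 36.5, 60.0 and 23.3 CPM under inhibition and 4.16, 10.4 and 8.42 CPM in controls, a log2 fold change of 2.38 ± 0.48 (edgeR adjusted p = 0.178). It was the only one of 10 listed genes that was tested, DESeq2 called it and limma-voom did not. Krt25, Krt26, Krt28, Krt71 and Krt72 were at 0. The next by level, Krt75 and Krt73, had at most 0.490 and 0.130 CPM in any library.

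Regulators of hard keratin genes, transglutaminases and a few other genes of hair and cornified cells rounded off the pathway. Those others were Padi1 and Padi3, which were tested, and Dsg4 and S100a3, which did not pass the filter. Dsg4 had 11, 61 and 7 counts under inhibition and 0, 0 and 1 counts in controls. All 15 listed genes were found, 9 were tested and all 9 had positive log2 fold changes, from 0.11 to 2.86 with a median of 1.24. The lowest was that of Padi3, at 0.11 ± 0.46 (edgeR adjusted p = 0.928), and its groups overlapped. EdgeR and limma-voom called none of the 9. DESeq2 called 2 of the 9, where it called 2.23% of all genes higher, and 7 were at an unadjusted p under 0.05, where 8.36% of all genes were. Tgm3, a transglutaminase of hair and epithelium, had 96.9, 134 and 22.6 CPM under inhibition and 19.9, 31.6 and 14.8 CPM in controls (1.94 ± 0.74, edgeR adjusted p = 0.324), with inhibition library 3 below control library 2. Tgm1, the transglutaminase of the cornified envelope, had 13.3, 14.96 and 5.67 CPM under inhibition and 3.62, 7.22 and 3.53 CPM in controls (1.24 ± 0.43, adjusted p = 0.259). Tgm5, a related enzyme, had 2.87, 4.25 and 1.33 CPM under inhibition and 1.27, 1.63 and 1.02 CPM in controls (1.12 ± 0.43, adjusted p = 0.275). For both of these, too, inhibition library 3 lay below a control. The 8 transcription factors of the list were at low levels and are described after their values were seen. Foxn1, which is needed for hair shaft formation, had 1.12, 2.36 and 0.715 CPM under inhibition and 0.241, 0.325 and 0.339 CPM in controls (2.18 ± 0.54, adjusted p = 0.170). Hoxc13, known to act on hair keratin genes, was too low to be tested, with 0.210, 1.13 and 0.0953 CPM under inhibition and 0, 0.390 and 0.0968 CPM in controls. Dlx3 and Msx1, homeobox factors of the hair follicle, differed by 2.86 ± 0.62 and 1.27 ± 0.53 on the log2 scale (edgeR adjusted p = 0.162 and 0.303), and their groups did not overlap. Inhibition lay wholly above control in 4 of the 9 tested genes of the list (Dlx3, Foxn1, Msx1 and Padi1). Of all genes tested, 10.2% did so. Foxq1, a forkhead factor of the hair medulla, had 0.701, 0.871 and 0.429 CPM under inhibition and 0.181, 0.716 and 0.678 CPM in controls (0.32 ± 0.54, adjusted p = 0.798). Gata3, a factor of the inner root sheath, averaged 0.114 CPM under inhibition and 0.195 CPM in controls and was not tested. Lef1 and Msx2 were not tested either, and the groups overlapped for Foxq1, Gata3, Lef1, Msx2 and Hoxc13.

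Tissue markers differed among these grafts beside the family. Squamous epithelial genes summed to 3927, 5061 and 1611 CPM under inhibition and 1386, 2845 and 1299 CPM in controls, and the groups overlapped. Of 15 listed, 11 were tested, and 9 lay above 0 (median log2 fold change 1.19). EdgeR and limma-voom called none of them. DESeq2 called 2, beside 2.23% of all genes, and 4 were higher at an unadjusted p under 0.05, beside 8.36% of all genes. Krt13 and Krt4, keratins of the tongue mucosa, and Krt14, of its basal layer, had the highest levels. Krt13 had 1933, 2567 and 660 CPM under inhibition and 617, 1362 and 455 CPM in controls (1.08 ± 0.68, adjusted p = 0.497). Krt4 had 1226, 1519 and 291 CPM under inhibition and 253, 637 and 168 CPM in controls (1.52 ± 0.83, adjusted p = 0.443). Krt14 had 286, 296 and 340 CPM under inhibition and 286, 442 and 351 CPM in controls (-0.23 ± 0.15, adjusted p = 0.504). In Krt13 and Krt4 inhibition library 3 lay below control library 2, the groups overlapped for all 3 genes, and Krt2 was at 0. Flg, Lor, Krt10 and Krt76, named after their values were seen, differed by more. Flg, which codes for filaggrin, had 2.52, 3.28 and 1.24 CPM under inhibition and 0.181, 0.260 and 0.290 CPM in controls (3.21 ± 0.49, adjusted p = 0.0788). Lor, for loricrin of the cornified envelope, had 59.1, 87.8 and 27.97 CPM under inhibition and 13.2, 24.9 and 15.003 CPM in controls (1.72 ± 0.50, adjusted p = 0.239). Of the 11 tested genes of the list these were the 2 whose groups did not overlap, with the inhibition libraries above. Of all genes tested, 10.2% did so. Krt10, a suprabasal keratin, and Krt76, a keratin of oral mucosa, differed by 2.58 ± 0.81 and 2.27 ± 0.86 on the log2 scale (edgeR adjusted p = 0.250 and 0.320), and their groups overlapped. The other tested keratins of the list differed less, and their groups overlapped. Krt15 and Krt5 were at 1.19 ± 0.81 and 0.43 ± 0.21 (edgeR adjusted p = 0.529 and 0.389). Krt6a and Krt16 were at 0.22 ± 0.23 and -0.22 ± 0.15 (edgeR adjusted p = 0.678 and 0.497). Krt1, Ivl and Flg2 did not pass the filter.

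Set against the squamous sum, the family did not overlap between the groups: it had 2.74 to 4.17 CPM for each 100 CPM of squamous genes under inhibition and 0.528 to 1.13 in controls. That sum is carried by Krt13, Krt4 and Krt14, and the part of cornifying epithelium in the family's difference was not tested.

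Skeletal muscle genes summed to 3632, 3212 and 2148 CPM under inhibition and 768, 1706 and 1141 CPM in controls, a ratio of 2.49. All 10 were tested with positive log2 fold changes (median 1.41). EdgeR and limma-voom called none. DESeq2 called 5 of the 10, against 2.23% of all genes, and 7 were at an unadjusted p under 0.05, against 8.36% of all genes. The 3 with the highest levels were Acta1 (muscle actin), Myh1 (a fast myosin) and Ttn (titin), which differed by 1.11 ± 0.26, 1.69 ± 0.49 and 1.45 ± 0.26 on the log2 scale (edgeR adjusted p = 0.186, 0.244 and 0.162). Against muscle the family stood at 2.96 to 5.93 CPM per 100 CPM under inhibition and 0.881 to 1.29 in controls. The part of muscle content in the family's difference was not tested beyond this ratio.

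Melanoma genes had the highest sum of the lists and overlapped between the groups, at 26818, 22899 and 22164 CPM under inhibition and 15570, 22702 and 23092 CPM in controls. All 7 were tested, with a median log2 fold change of 0.10. No gene of the list was called by edgeR, DESeq2 or limma-voom and none had an unadjusted p under 0.05. The grafts thus carried the markers that their label gives. Tyrp1, Dct and Pmel, of the pigment pathway, had the highest levels, differing by 0.37 ± 0.26, 0.10 ± 0.10 and 0.28 ± 0.19 on the log2 scale (edgeR adjusted p = 0.528, 0.646 and 0.514). Salivary gland markers were at or near 0, with 5 of 7 at 0 and sums of 0.490, 0.820 and 0.429 CPM under inhibition and 0.422, 0.195 and 0.290 CPM in controls. Only Amy1 and Aqp5 had counts, and neither was tested.

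**Figure D4:**
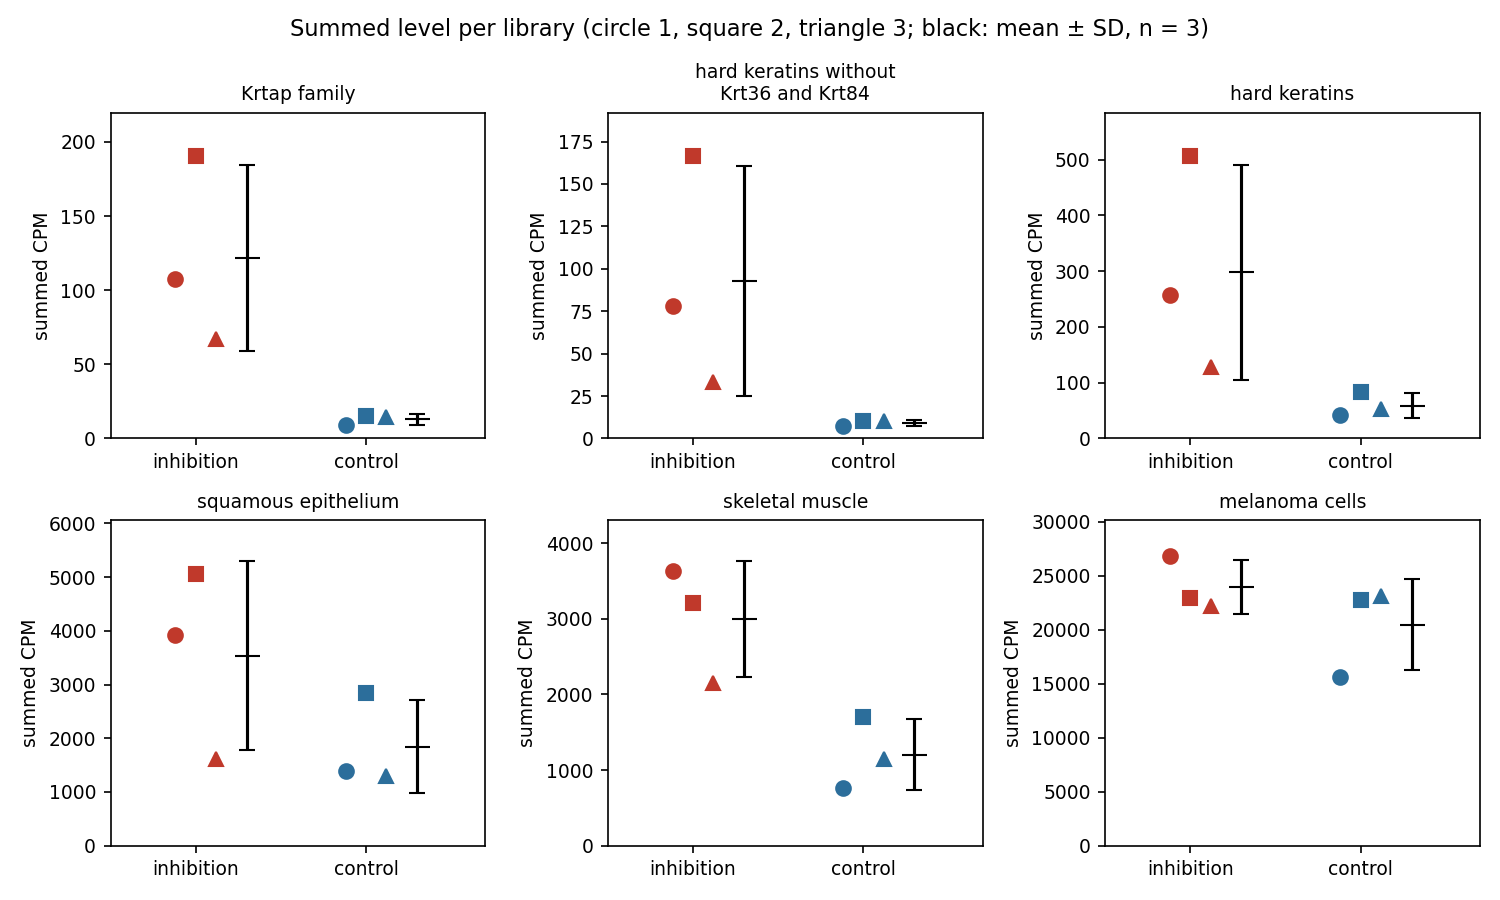
Summed CPM of the Krtap family, the hard keratins with and without Krt36 and Krt84, and squamous, muscle and melanoma genes in each library, 1 panel per list with its own scale, inhibition left of control, marks for libraries 1, 2 and 3 and black bars for the mean and SD (n = 3). The groups do not overlap for the family, the hard keratins and muscle, and overlap for squamous and melanoma genes.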

How the data were processed

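The authors deposited 1 table of raw read counts per Ensembl mouse gene with 6 columns, 1 per library, and all were used (0 columns left aside). The aligner HISAT2 2.0 and the build mm10 stand in the submitters' processing notes. How reads were counted, with which annotation and strand setting, is not given in the sources used here, so copies, overlapping and antisense genes are uncertain. Column names speak of denervation and sample titles of inhibition, and the shared group and number matched them. Gene names came from the GENCODE annotation of the reference; 346 of 55487 IDs without a symbol held 0.0575% of the counts.

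Counts were tested with edgeR 4.0.16 in R 4.3.3 (robust quasi-likelihood fit, TMM scaling, filterByExpr by group with a minimum of 10 counts and a total of 15, Benjamini-Hochberg adjustment over 15666 genes, threshold 0.05). The fit held all 6 libraries and no covariate. CPM are the deposited counts over the TMM-scaled library total, and the standard error is the log2 fold change divided by the root of F. Alternatives were RLE, upper-quartile and total scaling, filters, DESeq2 1.42.0, limma-voom (limma 3.58.1), a replicate block, an adjusted p of 0.1 and each library left out. On simulated counts the fit recovered 56 of 100 genes changed 2-fold and 95 of 100 changed 8-fold, with 14 false calls among 15466 unchanged genes. Each gene was drawn on its own there, without shifts shared by the genes of a library. The simulation is therefore a check of the code and does not give the power of the test in these data.

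The members, gene lists and tests were chosen with earlier results of these data known. Values per library were given for the 20 members with the most counts, both predicted genes and every member called; of each other list the 3 genes with the highest mean CPM were named, and further names were chosen after their values were seen. Protein sequences planned for the named members are not used here. No pair of libraries of 1 group agreed within sampling noise (chi-square per degree of freedom 7.65 to 17.9), so none was treated as a library deposited 2 times.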

Additional observations from a re-analysis of the deposited data

How the results depend on the processing

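All 22 fitted members kept positive log2 fold changes under every alternative that fitted them (20 under the 1 CPM filter), between 1.69 and 5.21. Calls moved far more. Krtap members called higher, 4 by edgeR, were 23 without a filter, 20 with DESeq2, 0 with limma-voom (22 at an unadjusted p under 0.05, which the choice of members favours), 12 at an adjusted p under 0.1, and 0 to 20 with 1 library left out. They were 0 without inhibition library 1, inhibition library 2 or control library 3 and 20 without inhibition library 3. Hard keratin genes called, 0 by edgeR (12 at an unadjusted p under 0.05), were 8 without a filter, 12 with DESeq2, 0 with limma-voom, and 0 to 9 with 1 library left out, 9 being without inhibition library 3. All genes called, 6 by edgeR in both directions, were 1187 without a filter, 541 with DESeq2, 0 with limma-voom (at an unadjusted p under 0.05, 1286 genes were higher and 1043 lower), 33 at an adjusted p under 0.1, and 0 to 217 with 1 library left out: 0 without inhibition library 1, inhibition library 2 or control library 3, 217 without inhibition library 3, and 11 and 24 without control library 1 and control library 2. The cause of these moves was not tested. The log2 ratio of the family's summed level, 3.25, was 3.24 to 3.26 under other scalings, 3.15 without subfamily 4 and the predicted genes, 3.24 over members sharing little sequence (chosen after seeing the data), and 2.76 to 3.53 with 1 library left out.

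With the replicate number as a block, 6 family members, 2 hard keratins and 14 genes in all were called; 2 of the 4 called members were among the 6. Deviations of same-numbered libraries correlated at -0.18, 0.33 and 0.09. With the block standard errors moved both ways, from 0.60 to 0.23 for Krt84 and from 0.44 to 0.49 for Gm11595. The labels link same-numbered libraries by number alone, so they were not treated as pairs, and whether they shared handling is not known.

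Low counts limit the control levels: 19 of the 23 members had under 10 counts in control library 1.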

Other observations

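The chromosome 11 cluster also holds predicted genes that carry no Krtap name. Between the first and last family gene there, 29 other genes are annotated, 16 of them protein-coding, and 10 protein-coding ones passed the filter (Gm11938, Gm11937, Gm11562, Gm11555, Gm11596, Gm11564, 2300003K06Rik, Gm11568, Gm11559 and Gm11567). A gene could pass that filter through the inhibition group alone. All 10 had their 3 inhibition values above their 3 control values, where 10.2% of all genes tested did, with log2 fold changes from 2.71 to 4.50 (median 3.44). None was called by edgeR (adjusted p = 0.0969 to 0.162) or limma-voom, all 10 had an unadjusted p under 0.05 (8.36% of all genes were higher at that level), and DESeq2 called 10 (2.23% of all genes). Gm11564 had the highest level, 2.31, 6.35 and 2.48 CPM under inhibition and 0.241, 0.0651 and 0.436 CPM in controls, a log2 fold change of 3.81 ± 0.62. Several of these genes share sequence with family members, among them Gm11562 with Krtap2-4 and Gm11559 with Krtap9-1.

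Pseudogenes inside the same span gave mixed values, and most had few counts or none. The processed pseudogene Gm14193 had 8, 6 and 3 counts under inhibition and 0, 0 and 3 counts in controls, and its groups overlapped. Gm14188, also processed, had 1 count in each inhibition library and 0 in each control library. The unprocessed pseudogene 4930415H17Rik had 0 counts in each inhibition library and 4, 3 and 4 counts in controls, and was too low to be tested. It was the only one of the 29 with its inhibition values below its control values. The processed pseudogene Gm11560 had 255, 304 and 355 counts under inhibition and 226, 196 and 332 counts in controls, or 17.9, 15.6 and 16.9 CPM under inhibition and 13.6, 12.8 and 16.1 CPM in controls. The groups overlapped, and the log2 fold change was 0.24 ± 0.13 (edgeR adjusted p = 0.406).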
